A study of Mus musculus with 48 samples.

Results

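The 9 chemokine receptor genes Ccr1, Ccr2, Ccr7, Cx3cr1, Cxcr2, Cxcr3, Cxcr4, Cxcr6 and Ackr3 were followed over 6 groups of mouse thoracic aorta. They were taken by symbol from the 18782 genes of the deposited table, and all 9 passed the filter on low counts that left 14431 genes for testing. The 8 leukocyte-type receptors were far higher in aortas with a lesion than in control aortas of the same sex, with the largest fold changes for Ccr2, Ccr1 and Cxcr2, whereas Ackr3 differed by less than its standard error from control in lesioned aortas of either sex. The female rise of Cxcr2 rested on 2 of 9 libraries, and its call was lost without the libraries high in neutrophil markers. In lesion-free aortas under the same treatment, Ccr2 in females was the one receptor that passed the test, and that call was lost when any of 11 single libraries was left out.

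Chemokines are small secreted proteins that steer leukocytes along a gradient. Their classical receptors span the membrane 7 times, couple to inhibitory G proteins and turn binding into directed movement, and each leukocyte type carries its own set. Ackr3 is an atypical receptor: it binds Cxcl12, the ligand of Cxcr4, but signals poorly through G proteins and removes the ligand from its surroundings. In the aortic wall, monocytes that carry Ccr2 are known to enter in aneurysm and dissection models.

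All mice were wild-type C57BL/6J mice, male (Ma) or female (Fe), studied at the end of a 28 day period that began at 3 weeks of age. MaCon (10 mice) and FeCon (10 mice) drank normal water. The other mice drank water with 0.4% β-aminopropionitrile (BAPN), which blocks the cross-linking of collagen and elastin, and were split by outcome: MaAAD (7) and FeAAD (9) had an aortic dissection or aneurysm, while MaNonAD (4) and FeNonAD (8) had none. Only mice that survived to the end gave RNA, so animals with a rupture are not among the samples, and the split by outcome was made after treatment and not at random. Each mouse gave 1 strand-specific RNA library of the thoracic aorta, a mixture of all cells of the wall. The paper describes the RNA as taken from lesioned segments and names no matching stretch for aortas without a lesion. A difference in the stretch sampled cannot be told apart from the lesion. A higher level in such bulk RNA cannot be told apart as more cells of a type or more RNA per cell.

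Library totals lay between 13548003 and 17281262 counts. Levels are given as CPM, counts scaled to the library total with TMM factors. Smooth muscle genes were high in every library, with summed levels of 6 markers from 11730 to 59714 CPM, which fits the labelled tissue. These markers were lower in AAD, where 3 of 6 were called lower in each sex. Leukocyte markers (Ptprc, Laptm5 and Coro1a) moved the other way, and all 3 were called higher in MaAAD and in FeAAD than in control of the same sex. A few libraries stood apart. The summed neutrophil markers were 855 CPM in FeAAD5, 217 CPM in MaAAD7 and 186 CPM in FeAAD9, against at most 52.1 CPM in the other 45 libraries. Control MaCon2 held 178 CPM of summed T cell markers, against a median of 10.8 CPM in its group, and control FeCon10 held 495 CPM of summed heart muscle markers. FeAAD2 held 24994 CPM of summed red cell markers, against a median of 592 CPM in its group.

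Of the receptor genes, 4 lie on mouse chromosome 9. Positions follow GENCODE M21 for build GRCm38 and were matched by symbol, since the count table carries none. Cxcr6 (chr9:123806475-123811760, plus strand), Ccr1 (chr9:123962124-123968692, minus strand) and Ccr2 (chr9:124101950-124113557, plus strand) sit within 307083 bases of each other. Cx3cr1 (chr9:119901616-120069879, minus strand) lies outside that stretch. Ackr3 (chr1:90203980-90216751, plus strand), Cxcr2 (chr1:74153989-74161246, plus strand) and Cxcr4 (chr1:128588199-128592293, minus strand) lie on chromosome 1. Ccr7 is at chr11:99144196-99155077 on the minus strand, and Cxcr3 at chrX:101731535-101734269 on the minus strand.

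RefSeq promoter sequences (GRCm38.p6) matched 8 of the 9 genes, with no entry for Ccr7. The 250 bases before the start are shown for Ackr3 and Cxcr4, the receptors that share Cxcl12 but differed in these aortas, and for Ccr1, one of the receptors that rose most. Capitals mark TATAAA, the TATA box, on either strand.
Ackr3 (chr1:90203730-90203979, plus strand): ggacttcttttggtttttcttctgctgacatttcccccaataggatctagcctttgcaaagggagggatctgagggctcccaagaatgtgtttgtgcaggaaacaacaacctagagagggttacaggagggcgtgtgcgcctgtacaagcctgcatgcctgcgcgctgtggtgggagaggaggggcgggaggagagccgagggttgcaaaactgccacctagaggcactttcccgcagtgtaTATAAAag
Cxcr4 (chr1:128592300-128592549, minus strand): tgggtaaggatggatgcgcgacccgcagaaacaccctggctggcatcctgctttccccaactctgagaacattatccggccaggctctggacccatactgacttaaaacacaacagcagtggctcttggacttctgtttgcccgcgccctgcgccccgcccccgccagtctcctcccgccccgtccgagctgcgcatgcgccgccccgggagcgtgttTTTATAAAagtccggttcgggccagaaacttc
Ccr1 (chr9:123968693-123968942, minus strand): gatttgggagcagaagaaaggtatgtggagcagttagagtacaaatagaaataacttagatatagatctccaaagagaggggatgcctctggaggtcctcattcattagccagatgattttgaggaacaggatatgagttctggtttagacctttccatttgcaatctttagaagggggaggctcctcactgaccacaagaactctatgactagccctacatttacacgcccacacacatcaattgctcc

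TATAAA stood in the windows of Cxcr4 and Ackr3 alone among the 8, and in 12.4% of 32851 promoter windows of this length. In Cxcr4 the match on both strands overlaps, which gives a run of 8 capitals. A core of the PU.1 motif, GAGGAAG on either strand, stood in the window of 1 receptor, Cxcr3, and in 10.6% of all windows. The NF-kB motif, GGGNN followed by TTTCC on either strand, was in 1.41% of all windows and in none of the 8. Cxcr4 had 19 CG pairs in its window and Ackr3 had 7, against a median of 6 over all windows, while Ccr1 had 1. These are letters in a window and were not tested against the expression values.

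In the comparison of lesioned with control aortas, 8 of 9 receptors were differentially expressed genes (DEGs) in males and 8 of 9 in females, all higher. A DEG had a Benjamini-Hochberg adjusted p under 0.05 in edgeR's quasi-likelihood test over 14431 genes (here edgeR adjusted p) and a log2 fold change of 1 or more in size. Among all tested genes, 9.18% were higher and 2.18% lower in MaAAD than in MaCon, and 9.94% were higher and 2.78% lower in FeAAD than in FeCon. DESeq2 also called 8 of the 9 in each sex, beside 8.67% of all genes higher and 2.03% lower in males and 9.63% and 2.92% in females. The median log2 fold change of the 9 receptors was 2.80 in males and 2.89 in females, against -0.03 and 0.00 over all tested genes. No receptor was called lower.

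Ccr2, the receptor for Ccl2 and Ccl7 on inflammatory monocytes, rose in both sexes. Its level in MaCon ran from 0.807 to 5.86 CPM with a median of 2.30, and in MaAAD from 29.8 to 224 CPM with a median of 51.8. The ranges did not overlap in males, and the log2 fold change was 4.61 (SE 0.55, edgeR adjusted p = 1.56e-08). In females, FeCon lay between 1.13 and 7.67 CPM (median 2.97) and FeAAD between 12.1 and 193 CPM (median 50.3), again without overlap. The log2 fold change was 4.19 (SE 0.53, edgeR adjusted p = 1.76e-08). MaAAD7 and FeAAD5 were the highest libraries of their groups, each more than 100 CPM above the next. Without MaAAD7 the male log2 fold change was 3.97.

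**Figure D1:**
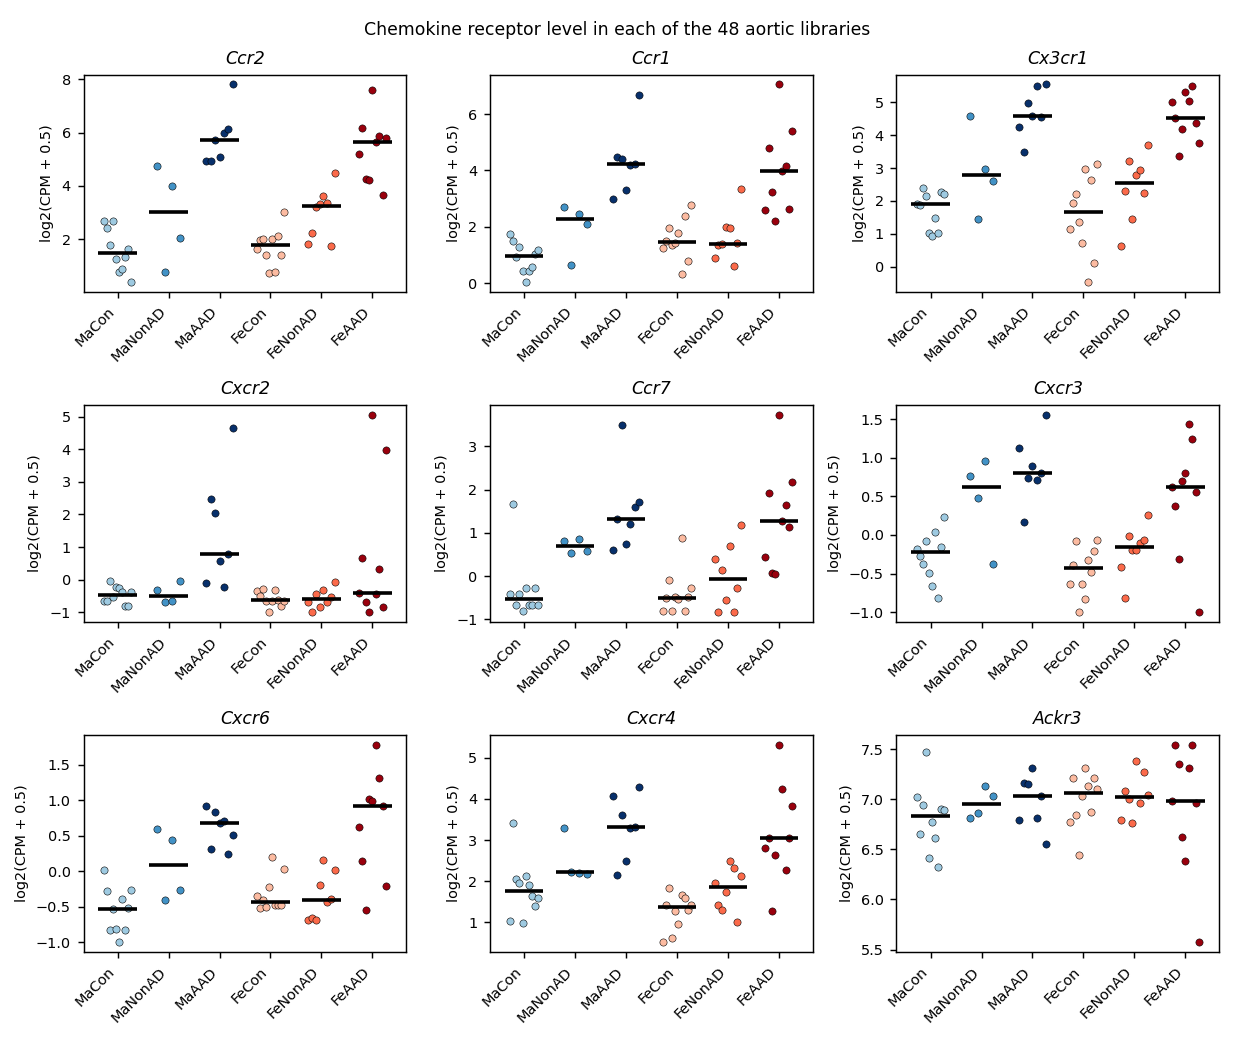
Level of each receptor in the 48 libraries on a log2(CPM + 0.5) scale (vertical axis), by group (horizontal axis); each point is 1 mouse and each line the group median. Ccr2 in MaAAD starts at 29.8 CPM, above the highest MaCon library at 5.86 CPM, while the Ackr3 medians of the 6 groups stay between 114 and 133 CPM.

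Ccr1 binds Ccl3, Ccl5 and other inflammatory chemokines on monocytes, macrophages and neutrophils. Its level was 0.531 to 2.82 CPM in MaCon (median 1.47) and 7.35 to 101 CPM in MaAAD (median 18.4). Every MaAAD library was above every MaCon library, and the log2 fold change was 4.22 (SE 0.58, edgeR adjusted p = 2.51e-07). FeCon ran from 0.744 to 6.43 CPM (median 2.26) and FeAAD from 4.12 to 132 CPM (median 15.3). Of 9 FeAAD libraries, 3 stayed within the range of FeCon and 6 were above it, and the log2 fold change was 3.35 (SE 0.54, edgeR adjusted p = 2.13e-06). It was 2.49 without FeAAD5, and the male value was 3.40 without MaAAD7, both still DEGs.

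Cx3cr1, the receptor for Cx3cl1 on patrolling monocytes and tissue macrophages, rose with a narrower spread. MaCon libraries held 1.39 to 4.81 CPM (median 3.24) and MaAAD libraries 10.7 to 46.3 CPM (median 23.5), with a log2 fold change of 3.21 (SE 0.46, edgeR adjusted p = 4.14e-07). FeCon libraries held 0.223 to 8.20 CPM (median 2.69) and FeAAD libraries 9.72 to 44.9 CPM (median 22.5), with a log2 fold change of 2.89 (SE 0.44, edgeR adjusted p = 7.45e-07). Neither sex had an overlap between its groups. The spread within lesioned aortas was smaller than for Ccr1. The SD of Cx3cr1 in FeAAD was 12.0 CPM around a mean of 25.7, and that of Ccr1 was 40.7 CPM around 28.7. Much of this Ccr1 spread came from FeAAD5, at 132 CPM against 42.0 CPM in the next library.

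The known role of Cxcr2 is to draw neutrophils towards Cxcl1, Cxcl2, Cxcl5 and Ppbp. It was close to absent in control aortas, with 1 to 7 counts in MaCon and 0 to 5 counts in FeCon. MaAAD libraries held 0.359 to 24.7 CPM with a median of 1.24, and the log2 fold change was 4.48 (SE 0.93, edgeR adjusted p = 0.000143). FeAAD libraries held 0 to 32.9 CPM with a median of 0.244, and the log2 fold change was 4.98 (SE 0.94, edgeR adjusted p = 2.85e-05). The groups overlapped: 5 of 7 MaAAD libraries and 4 of 9 FeAAD libraries were above the highest control of their sex.

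The female rise of Cxcr2 rested on FeAAD5 (557 counts) and FeAAD9 (255 counts), since the other 7 FeAAD libraries held 0 to 18 counts. Without FeAAD5 alone the log2 fold change was 3.64. With FeAAD5, FeAAD9 and MaAAD7 (423 counts) left out together, chosen after seeing the data for their neutrophil markers, the log2 fold change in females was 1.02 and the call was lost (edgeR adjusted p = 0.188, against 6.82e-08 to 0.188 over all 27 alternatives, DESeq2 included). In males it was 3.07 and kept its call (edgeR adjusted p = 9.46e-06, against 6.39e-06 to 0.00680 over 25 alternatives, DESeq2 included). The same libraries led the summed level of 6 neutrophil markers, whose median was 21.1 CPM in MaAAD and 11.5 CPM in FeAAD, against 2.82 and 2.62 CPM in the controls. Of the 5 neutrophil markers tested, 4 were called higher in MaAAD and 5 in FeAAD. Their part in the Cxcr2 result was not tested. Reads of Cxcr2 had been shared out with another gene in 9 libraries, which changed no count by more than 0.5 on rounding.

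**Figure D2:**
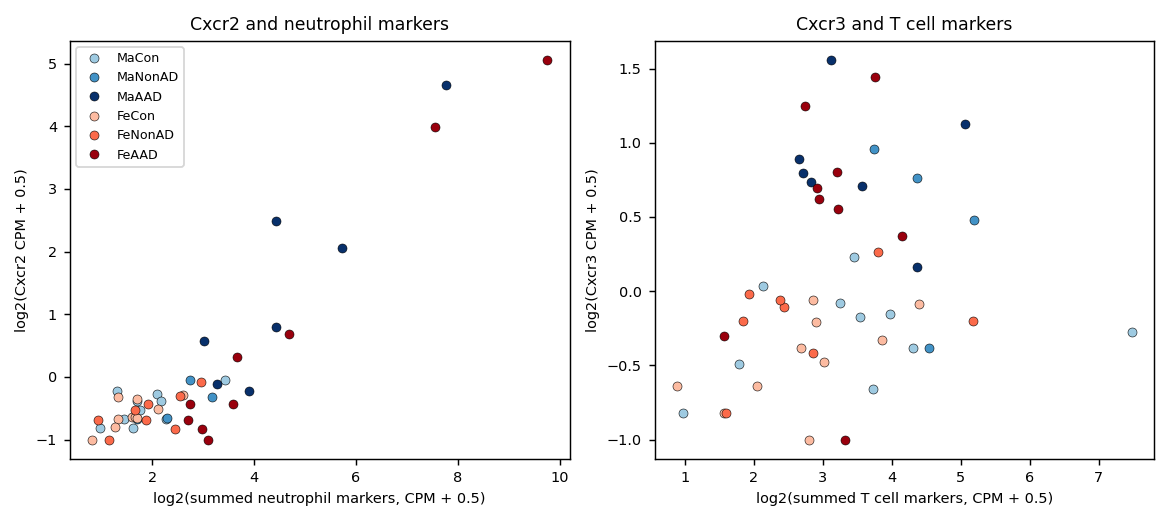
Cxcr2 against the summed level of 6 neutrophil markers (left) and Cxcr3 against the summed level of 6 T cell markers (right), all as log2(CPM + 0.5), with 1 point per mouse coloured by group. Cxcr2 is highest in the 3 libraries with the highest neutrophil markers (217, 855 and 186 CPM), while the control with 178 CPM of T cell markers has a Cxcr3 level among those of the other controls.

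Ccr7 guides dendritic cells and naive lymphocytes towards Ccl19 and Ccl21. Its level was low in control, with medians of 0.195 CPM in MaCon and 0.206 CPM in FeCon, and reached medians of 1.99 CPM in MaAAD (range 1.02 to 10.8) and 1.92 CPM in FeAAD (range 0.530 to 12.8). The log2 fold change was 2.80 in males (SE 0.64, edgeR adjusted p = 0.000529) and 3.30 in females (SE 0.65, edgeR adjusted p = 4.94e-05). One control overlapped most of the lesioned aortas: MaCon2, the library with high T cell markers, had 2.68 CPM of Ccr7. Without MaCon2 the male log2 fold change was 3.94, and without MaAAD3, the highest MaAAD library, it was 2.08 (edgeR adjusted p = 0.00924, against 3.98e-06 to 0.00924 with single libraries left out). The female value was 3.90 without FeCon7 and 2.60 without FeAAD5. Dendritic cell markers were also called higher in 3 of 4 cases in each sex, and their part in the Ccr7 result was not tested.

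Cxcr3 and Cxcr6 are receptors of activated T cells and natural killer cells, for Cxcl9 and Cxcl10 and for Cxcl16 respectively. Cxcr3 was at most 0.673 CPM in MaCon and 0.620 to 2.45 CPM in MaAAD (medians 0.356 and 1.24), a log2 fold change of 1.98 (SE 0.44, edgeR adjusted p = 0.000340). In females its medians were 0.241 CPM in FeCon and 1.04 CPM in FeAAD, where it ranged from 0 to 2.22 CPM, a log2 fold change of 2.11 (SE 0.44, edgeR adjusted p = 0.000127). The library with no Cxcr3 count was FeAAD9, for which a count of 0 allows up to 3 counts.

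Cxcr6 had medians of 0.195 CPM in MaCon and 1.11 CPM in MaAAD, and the male groups did not overlap (highest MaCon library 0.512 CPM, lowest MaAAD library 0.682 CPM). Its log2 fold change was 2.30 in males (SE 0.43, edgeR adjusted p = 3.51e-05) and 2.00 in females (SE 0.39, edgeR adjusted p = 5.00e-05). FeCon had a median of 0.238 CPM and FeAAD of 1.39 CPM, with 6 of 9 FeAAD libraries above all of FeCon. Both genes stayed at few counts, 10 to 42 for Cxcr3 and 11 to 23 for Cxcr6 in MaAAD.

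General T cell markers were not called beside these receptors. None of the 6 tested (Cd3e, Cd3d, Cd3g, Cd4, Cd8a and Lck) was called in either sex, and their median log2 fold change was -0.63 in males and 0.48 in females. Their summed level ran from 5.78 to 32.8 CPM in MaAAD (median 8.22) and from 1.47 to 178 CPM in MaCon (median 10.8). In females it ran from 2.48 to 17.3 CPM in FeAAD (median 8.70) and from 1.35 to 20.6 CPM in FeCon (median 6.59). The natural killer cell gene Klrd1, the only one of 4 such markers that was tested, was a DEG in both sexes, with log2 fold changes of 3.60 in males and 4.73 in females. None of the markers of these cell types was at 0 in a whole AAD group, and their part in the Cxcr3 and Cxcr6 results was not tested.

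Cxcr4, the classical Cxcl12 receptor on most leukocytes and on some vessel wall cells, rose in both sexes. MaCon ranged from 1.48 to 10.1 CPM (median 2.92) and MaAAD from 3.97 to 19.1 CPM (median 9.49), a log2 fold change of 1.63 (SE 0.39, edgeR adjusted p = 0.000926). The highest control was again MaCon2, and without it the log2 fold change was 1.98. FeCon ranged from 0.925 to 3.04 CPM (median 2.07) and FeAAD from 1.92 to 39.4 CPM (median 7.81), a log2 fold change of 2.56 (SE 0.39, edgeR adjusted p = 8.60e-07). Of 9 FeAAD libraries, 8 were above every FeCon library.

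Ackr3 was the receptor with the highest level in all groups and did not pass the test. MaCon ranged from 79.3 to 176 CPM (median 114) and MaAAD from 93.3 to 158 CPM (median 131), a log2 fold change of 0.16 (SE 0.17, edgeR adjusted p = 0.491). FeCon ranged from 86.6 to 158 CPM (median 133) and FeAAD from 47.1 to 186 CPM (median 126), a log2 fold change of 0.02 (SE 0.16, edgeR adjusted p = 0.948). The ranges overlapped throughout, and FeAAD was the most spread group, with an SD of 47.7 CPM. The 2 lowest FeAAD libraries were FeAAD9 (47.1 CPM) and FeAAD5 (83.1 CPM), and MaAAD7 (93.3 CPM) was the lowest of MaAAD. These are the same 3 libraries that had the highest neutrophil markers. Summed endothelial markers were also lowest there within their groups, at 430 CPM in MaAAD7, 285 CPM in FeAAD5 and 248 CPM in FeAAD9. The group medians were 664 CPM in MaAAD and 646 CPM in FeAAD. The part of either marker list in the Ackr3 values was not tested.

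**Figure D3:**
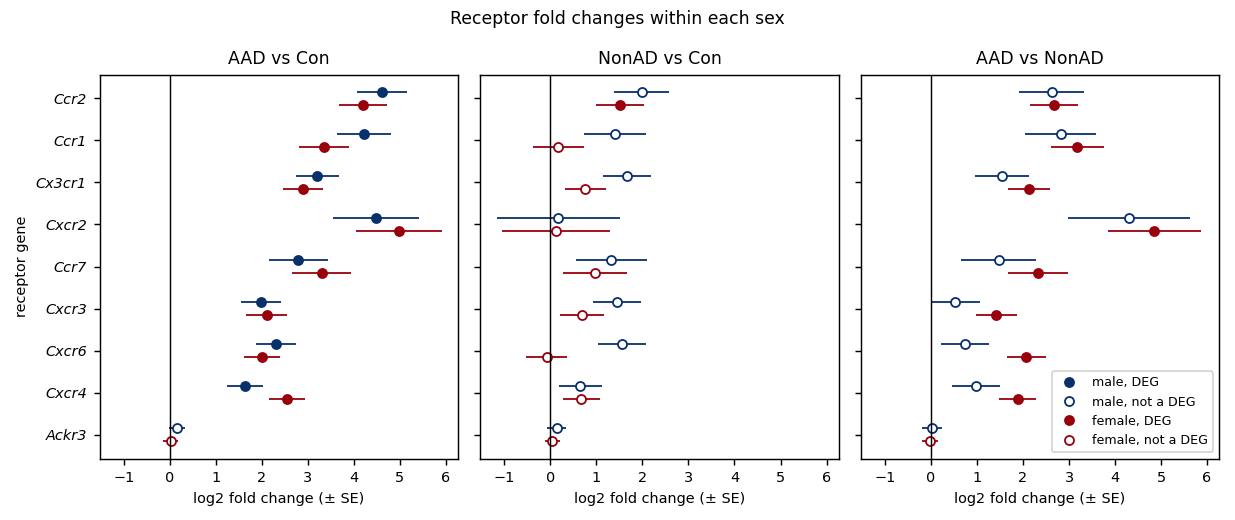
Log2 fold change of each receptor (horizontal axis, bars are the approximate SE) in the 3 within-sex comparisons, males in blue and females in red; filled points are DEGs. All receptors but Ackr3 lie above 1 in AAD against control, with Cxcr2 at 4.48 and 4.98, and Ackr3 lies at 0.16 and 0.02.

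Levels of different genes can be set side by side only per length, here as mean CPM per kilobase of the longest annotated transcript. Ackr3 was highest in all groups, at 37.1 in MaCon and 41.4 in MaAAD, and at 42.0 in FeCon and 42.4 in FeAAD. Among controls Cxcr4 followed, at 1.91 in MaCon and 1.10 in FeCon, with Cx3cr1 (0.679 and 0.768), Ccr1 (0.530 and 0.985) and Ccr2 (0.510 and 0.541) close together and within each other's spread. In MaAAD the order behind Ackr3 was Ccr2 (12.5), Ccr1 (9.92), Cx3cr1 (6.29) and Cxcr4 (5.93), and in FeAAD it was Ccr1 (10.1), Ccr2 (9.96), Cxcr4 (6.50) and Cx3cr1 (5.73). Neighbours among these 4 did not differ beyond the SD of their groups. Cxcr2, Ccr7, Cxcr3 and Cxcr6 stayed at or below 1.86 in every group.

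Ackr3 had the highest level per kilobase in 46 of 48 libraries, the exceptions being MaAAD7 and FeAAD5, in which Ccr1 and Ccr2 were also at their highest. Per length, Cxcr4 stood at a median of 4.33% of the level of Ackr3 in MaCon, 5.67% in MaNonAD and 14.2% in MaAAD. In females the medians were 2.51% in FeCon, 4.76% in FeNonAD and 9.99% in FeAAD. The highest single value was 80.5% in FeAAD5.

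The comparison of lesion-free BAPN aortas with controls asks what differs under treatment without a lesion. In males, 0 of 9 receptors were DEGs in edgeR and 0 in DESeq2, while 5 had an unadjusted p under 0.05. Over all genes, 0.381% were higher and 0.097% lower in MaNonAD in edgeR, and 0.475% and 0.15% in DESeq2. In females 1 of 9 was a DEG, Ccr2, where 1.67% of all genes were higher and 1.08% lower. The median log2 fold change of the receptors was 1.40 in males and 0.67 in females, against -0.02 and 0.00 over all genes. Of the cell type markers, B cell markers were called higher in 3 of 4 cases in MaNonAD and 1 of 4 in FeNonAD and dendritic cell markers in 2 of 4 in FeNonAD, and no leukocyte, macrophage, monocyte, neutrophil or T cell marker was called in either. Their part in the receptor values was not tested.

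Ccr2 read 26.0, 1.21, 15.6 and 3.61 CPM in MaNonAD1 to MaNonAD4. Of the 4, 2 were above every MaCon library, and the log2 fold change was 1.98 (SE 0.60, edgeR adjusted p = 0.119). Leaving out MaNonAD2, the lowest library, made it a DEG at 2.39 (edgeR adjusted p = 0.0441, against 0.0441 to 0.810 over its 22 alternatives, DESeq2 included). Without MaNonAD1, the highest library, it was 1.21 (edgeR adjusted p = 0.810). FeNonAD ranged from 2.82 to 21.7 CPM (median 9.06), with 5 of 8 libraries above every FeCon library, and the log2 fold change was 1.51 (SE 0.52, edgeR adjusted p = 0.0404). This call was lost when any of FeCon1, 4, 5, 6, 7 or 9 or of FeNonAD3, 4, 5, 6 or 8 was left out, at edgeR adjusted p from 0.0503 to 0.132 (0.0139 to 0.132 over all 26 alternatives, DESeq2 included). It was also lost with the replicate block (1.54, edgeR adjusted p = 0.0876) and without the filter on low counts (1.52, edgeR adjusted p = 0.0509). Without FeNonAD8, the highest library, the log2 fold change was 1.18.

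Cx3cr1 read 23.5, 2.23, 7.36 and 5.61 CPM in the 4 MaNonAD libraries, a log2 fold change of 1.67 (SE 0.52, edgeR adjusted p = 0.137) that was 0.73 without MaNonAD1. Ccr1 read 6.05, 1.08, 4.99 and 3.81 CPM, a log2 fold change of 1.40 (SE 0.68, edgeR adjusted p = 0.397). MaNonAD1 was the highest and MaNonAD2 the lowest library for Ccr2, Ccr1, Cx3cr1 and Cxcr6. The summed leukocyte markers were also highest in MaNonAD1, at 161 CPM, in a group with a lowest value of 80.7 CPM.

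In females the corresponding values were smaller. Cx3cr1 ran from 1.05 to 12.6 CPM in FeNonAD (median 5.42), a log2 fold change of 0.76 (SE 0.44, edgeR adjusted p = 0.255). Ccr1 had a median of 2.15 CPM in FeNonAD against 2.26 CPM in FeCon, a log2 fold change of 0.17 (SE 0.56, edgeR adjusted p = 0.869). FeNonAD8 was the highest library for both, as it was for summed leukocyte (182 CPM) and neutrophil (7.26 CPM) markers.

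Among the low receptors, Cxcr3 read 1.20, 0.891, 1.45 and 0.267 CPM in MaNonAD, with 3 of 4 above every MaCon library and a log2 fold change of 1.45 (SE 0.52, edgeR adjusted p = 0.202). Cxcr6 read 1.02, 0.255, 0.854 and 0.334 CPM, a log2 fold change of 1.56 (SE 0.52, edgeR adjusted p = 0.165). Ccr7 read 1.26, 0.955, 1.31 and 1.00 CPM, the narrowest of these sets, a log2 fold change of 1.32 (SE 0.77, edgeR adjusted p = 0.523). Leaving out MaCon2 raised the Ccr7 value to 2.47. Without it the call was still missed (edgeR adjusted p = 0.0965, against 0.0965 to 0.853 over 22 alternatives, DESeq2 included).

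In FeNonAD the medians were 0.400 CPM for Cxcr3, 0.253 CPM for Cxcr6 and 0.468 CPM for Ccr7, with log2 fold changes of 0.69, -0.08 and 0.97 that did not pass the test. Without FeCon7 that of Ccr7 was 1.57. Cxcr2 read 0.299, 0.127, 0.131 and 0.468 CPM in MaNonAD and at most 0.446 CPM in FeNonAD, within the range of MaCon and with 1 FeNonAD library above FeCon. Cxcr4 read 9.34, 4.20, 4.07 and 4.01 CPM in MaNonAD and had a median of 3.13 CPM in FeNonAD, with log2 fold changes of 0.65 and 0.67 that did not pass. Ackr3 read 112, 116, 140 and 131 CPM in MaNonAD and had a median of 129 CPM in FeNonAD, with log2 fold changes of 0.13 and 0.04.

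Lesioned against lesion-free aortas under the same treatment gave 8 DEGs of 9 in females, all but Ackr3, where 6.79% of all genes were higher and 0.249% lower in FeAAD. In males 0 of 9 were DEGs in edgeR, and 4 had an unadjusted p under 0.05, where 0.353% of all genes were higher and 0% lower. DESeq2 called 3 of the 9 in males, Ccr2, Ccr1 and Cxcr2, all higher, where it called 3.46% of all genes higher and 0.0751% lower. The median log2 fold change of the 9 receptors was 1.47 in males and 2.13 in females, against 0.00 and 0.00 over all genes. In females 3 of 3 leukocyte, 3 of 3 monocyte, 5 of 7 macrophage and 5 of 5 tested neutrophil markers were called higher. So were 3 of 4 B cell, 2 of 4 dendritic, 1 of 5 resident macrophage and 4 of 4 red cell markers and Klrd1, but 0 of 6 T cell markers. In males 1 of 5 resident macrophage markers was called, and none of the other lists. Their part in the receptor values was not tested.

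Ccr1 and Ccr2 just missed the male threshold. Every MaAAD library was above every MaNonAD library for both genes, with log2 fold changes of 2.82 (SE 0.77) for Ccr1 and 2.62 (SE 0.70) for Ccr2, both at edgeR adjusted p = 0.0507. Both became DEGs when MaNonAD1, MaAAD1, MaAAD2 or MaAAD4 was left out, with edgeR adjusted p from 0.0157 to 0.288 for both genes when single libraries were left out. In DESeq2 the adjusted p was 0.00697 for Ccr1 and 0.00763 for Ccr2. Without MaAAD7 the log2 fold changes were 2.00 for Ccr1 and 1.99 for Ccr2. Cxcr2 stood at 4.30 (SE 1.33, edgeR adjusted p = 0.0677) and became a DEG without MaAAD1 (log2 fold change 4.49), while without MaAAD7 it stood at 2.90. With the 3 neutrophil-marker-high libraries left out together, Cxcr2 (2.90, edgeR adjusted p = 0.0274) and Ccr1 (2.00, edgeR adjusted p = 0.0392) were DEGs. Of the 3, MaAAD7 alone belongs to this comparison, and without it alone neither passed (edgeR adjusted p = 0.280 for Cxcr2 and 0.210 for Ccr1). Cx3cr1 stood at 1.54 (SE 0.59, edgeR adjusted p = 0.134) and became a DEG at 2.48 without MaNonAD1. The other 5 receptors had log2 fold changes from 0.03 to 1.47 in males, the highest that of Ccr7, which was 0.73 without MaAAD3.

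In females, Ccr1 had a log2 fold change of 3.18 (SE 0.58, edgeR adjusted p = 0.000146), Ccr2 of 2.68 (SE 0.52, edgeR adjusted p = 0.000266) and Cx3cr1 of 2.13 (SE 0.46, edgeR adjusted p = 0.000740). Without FeAAD5 the value of Ccr1 was 2.32, still a DEG. Cxcr6 rose by 2.07 (SE 0.42, edgeR adjusted p = 0.000401) and Cxcr4 by 1.88 (SE 0.41, edgeR adjusted p = 0.000808) on the same scale. Cxcr2 stood at 4.85 (SE 1.01, edgeR adjusted p = 0.000530), and at 0.90 with the 3 neutrophil-marker-high libraries left out, where its call was lost. Without FeAAD5 alone it was 3.52 and a DEG. Ccr7 stood at 2.33 (SE 0.65, edgeR adjusted p = 0.00880), and its call was lost without FeAAD5, at 1.63, and without the 3 neutrophil-marker-high libraries, at 1.39. Cxcr3 stood at 1.42 (SE 0.44, edgeR adjusted p = 0.0209), and its call was lost without FeAAD6, the highest library, at 1.21, and in a fit of the FeAAD and FeNonAD libraries alone (1.42, edgeR adjusted p = 0.0840). Ackr3 stood at -0.02 (SE 0.17).

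No receptor differed between the sexes at the threshold. Of the 9, 0 were DEGs in edgeR between MaCon and FeCon (1 at an unadjusted p under 0.05, 1.51% of all genes called), 0 between MaNonAD and FeNonAD (1 at an unadjusted p under 0.05, 0.0485% called) and 0 between MaAAD and FeAAD (0 at an unadjusted p under 0.05, 0.0693% called). DESeq2 called 0 of the 9 in each, beside 1.83%, 0.0376% and 0.0537% of all genes. In the controls the lowest p was that of Cxcr4, higher in MaCon by 0.79 (SE 0.38, edgeR adjusted p = 0.157), and this difference was 0.44 without MaCon2. In lesion-free aortas it was that of Cxcr3, higher in males by 1.26 (SE 0.54, edgeR adjusted p = 0.720). In lesioned aortas the differences, male minus female, ran from -0.30 for Cxcr6 to 0.37 for Cxcr3.

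The difference between the sexes in each response was tested as an interaction. None of the 9 passed in AAD against control (0 at an unadjusted p under 0.05, 0.52% of all genes called), in NonAD against control (1, 0.298% called) or in AAD against NonAD (1, 0% called). DESeq2 called 0 of the 9 in each, beside 0.84%, 0.605% and 0.00537% of all genes. Cxcr6 gave the lowest p of the latter 2 comparisons. Its response to BAPN without a lesion was larger in males by 1.63 (SE 0.69, edgeR adjusted p = 0.300), and its step from NonAD to AAD was smaller in males by 1.33 (-1.33, SE 0.65, edgeR adjusted p = 1.00). The calls in females and their absence in males for AAD against NonAD, with 4 MaNonAD and 8 FeNonAD libraries, are thus no difference between the sexes that passed its test.

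Since leukocyte markers rose with the receptors, each receptor was also taken relative to the summed CPM of Ptprc, Laptm5 and Coro1a, as a difference of log2(CPM + 0.5) values. It was compared within sex by a two-sided exact permutation test, adjusted by Benjamini-Hochberg over 54 tests (9 receptors in 6 comparisons). The same ratio was also computed for all 14431 tested genes, chosen after seeing the data, and the p-values given are adjusted over all of them. Summed leukocyte markers ran from 22.5 to 141 CPM in MaCon and 148 to 614 CPM in MaAAD, and from 33.1 to 89.7 CPM in FeCon and 106 to 731 CPM in FeAAD. With markers this much higher, a gene that rose less than they did has a lower ratio by construction: 96.6% of all tested genes were lower in MaAAD than in MaCon and 96.3% in FeAAD than in FeCon, and 0.478% and 0.534% were higher. In AAD against control, 6 of 9 receptors passed over the 54 tests in males (2 higher and 4 lower) and 4 of 9 in females (1 higher and 3 lower). Over all tested genes it was 3 higher and 4 lower in males and 1 higher and 3 lower in females. The share of receptors with a lower ratio was below that of all tested genes in both sexes.

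Ccr2 rose more than the leukocyte markers. Its log2 ratio to them was -2.24 ± 0.48 (SD, n = 7) in MaAAD and -4.17 ± 0.76 (SD, n = 10) in MaCon, a difference of 1.93 (exact permutation adjusted p = 0.000173), and the difference in females was 1.59 (exact permutation adjusted p = 9.28e-05). In FeAAD against FeNonAD it stood at 0.79 (exact permutation adjusted p = 0.00926), where 0.132% of all genes were higher, and in MaAAD against MaNonAD at 1.63 (exact permutation adjusted p = 0.0384), where 0.319% were higher and 79.2% lower. In FeNonAD against FeCon it stood at 0.80 and passed over the 54 tests but not over all genes (exact permutation adjusted p = 0.142), where 0% of genes were higher. In MaNonAD against MaCon it stood at 0.30 and did not pass (exact permutation adjusted p = 0.608), and it ran from -0.12 to 0.87 with single libraries left out. Over the 54 tests, the FeAAD call was lost without any 1 of FeNonAD1, 3 or 7 or FeAAD1, 2, 5, 7 or 9, and the FeNonAD call without any 1 of FeNonAD2, 3, 4, 5, 6 or 8. The male call against MaNonAD was lost without any 1 MaNonAD library or any 1 of MaAAD2, 3, 5, 6 or 7, and the value stood at 1.06 without MaNonAD2. Against Ptprc alone, the FeNonAD value was 0.43 and the male value 1.54, and neither passed.

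Ccr1 rose more than the markers in males, by 1.12 (exact permutation adjusted p = 0.00410), and by 0.35 in females, which did not pass. Cx3cr1 stood at 0.68 in males, which passed over all tested genes (exact permutation adjusted p = 0.0207) but not over the 54 tests, where it passed without MaCon3 or MaCon9 and with a pseudocount of 0.1 (0.85). In females it stood at 0.89 and did not pass (exact permutation adjusted p = 0.0502).

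Ackr3 stood at -2.12 in males and -2.17 in females. Cxcr3 stood at -1.16 and -1.14 and Cxcr6 at -1.15 and -1.11, and with a pseudocount of 0.1 these 4 values were -0.52, -0.56, -0.23 and -0.60 and none passed over the 54 tests. Against Ptprc alone the male values were -1.11 for Cxcr3 and -1.10 for Cxcr6 and did not pass, and the control medians of both genes lie below 0.5 CPM. Cxcr4 stood at -0.78 in males and at -0.19 in females, which did not pass. Its male value no longer passed over the 54 tests with a pseudocount of 0.1 (-0.66), against Ptprc alone (-0.73) or without MaAAD2, MaAAD5, MaAAD6 or MaAAD7. Ccr7 and Cxcr2 did not pass, and their sign in males depended on the pseudocount, as did that of Ccr7 in females. In FeAAD against FeNonAD, where 95.3% of all genes were lower, Ackr3 stood at -1.75 and Cxcr3 at -0.94. The Cxcr3 value no longer passed over the 54 tests with a pseudocount of 0.1, against Ptprc alone, or without any 1 of FeNonAD1, 2, 3, 4, 6 or 7 or FeAAD2, 5 or 9.

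**Figure D4:**
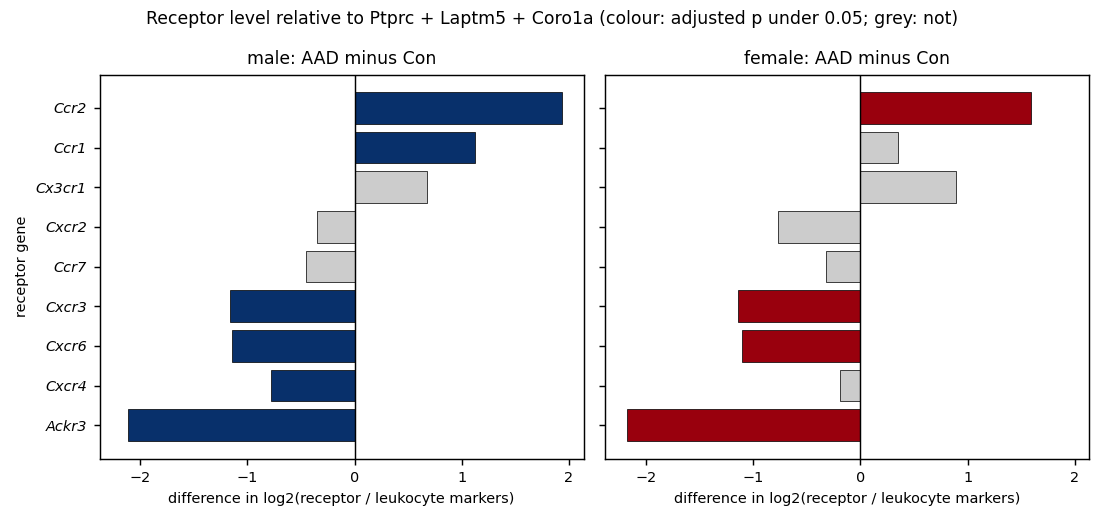
Mean difference between AAD and control in log2(receptor CPM + 0.5) minus log2(summed Ptprc, Laptm5 and Coro1a CPM + 0.5), males left and females right; coloured bars passed the exact permutation test adjusted over 54 tests and grey bars did not. Ccr2 stands at 1.93 and 1.59 and Ackr3 at -2.12 and -2.17.

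For each receptor, the 3 tested genes with the most similar profile were found by Pearson's r of log2(CPM + 0.5) over the 48 libraries, with group differences included. Values in parentheses are r after the group means were removed. Libraries share their depth and cell content in all these values. Ccr1 was nearest to Plek (0.967, 0.903), Msr1 (0.962, 0.890) and Itgam (0.961, 0.885). Ccr2 was nearest to Nckap1l (0.964, 0.854), Lcp1 (0.962, 0.842) and Slfn9 (0.959, 0.848). For Cx3cr1, Pik3ap1 (0.943, 0.821) and C3ar1 (0.926, 0.783) were among the nearest.

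Cxcr2 was nearest to Il1r2 (0.957, 0.954), Cxcl3 (0.948, 0.936) and Cd177 (0.940, 0.940), and these values barely moved when group means were removed. The nearest genes to Ccr7 were Rac2 (0.894, 0.765), Gpr132 (0.889, 0.753) and Cytip (0.886, 0.742), and those to Cxcr4 were Selplg (0.909, 0.790), Dennd1c (0.907, 0.788) and Arhgap4 (0.903, 0.794). Cxcr3 was nearest to Fgd2 (0.898, 0.829), C1qc (0.890, 0.772) and Lpar5 (0.881, 0.745), the macrophage complement gene C1qc among them, and Cxcr6 to Gpr65 (0.854, 0.640), Man1c1 (0.851, 0.679) and Col8a1 (0.848, 0.660). Ackr3 had the lowest values, with Fndc1 (0.776, 0.794), Add3 (0.770, 0.794) and Cd34 (0.761, 0.780).

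The rest of the pathway was read from lists of ligands, other receptors and signalling genes. Of 16 other chemokine receptors, 9 passed the filter on low counts. Their median log2 fold change in AAD against control was 0.07 in males and 0.21 in females. For the receptors followed here it was 2.80 and 2.89. Among the others, Xcr1, a marker of cross-presenting dendritic cells, was a DEG, with log2 fold changes of 1.67 in males and 1.63 in females. None was called lower. Past the p threshold but under the fold threshold were Ccrl2, at -0.86 in males and -0.40 in females, and Cmklr1, at 0.69 in males. The atypical receptors Ackr1, Ackr2 and Ackr4 were not called in either sex.

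All 21 ligands were tested, and 19 were called higher in AAD than in control in each sex, with medians of 3.12 in males and 2.79 in females. The Ccr2 ligands stood at 5.17 and 3.60 for Ccl2, 5.29 and 3.90 for Ccl7 and 3.43 and 2.79 for Ccl12. Those of Ccr1 stood at 4.42 and 4.17 for Ccl3, 2.58 and 2.53 for Ccl5, 3.12 and 2.19 for Ccl6 and 2.93 and 2.26 for Ccl9. The related Ccl4 stood at 3.71 and 4.41 and Ccl8 at 4.32 and 4.47. Of the Cxcr2 ligands, Cxcl1 stood at 3.08 and 2.66, Cxcl2 at 3.68 and 3.74, Cxcl5 at 4.20 and 3.81, Ppbp, a platelet product, at 4.08 and 6.41, and Cxcl3 at 8.46 and 8.36 from mean levels of 0.00637 CPM in MaCon and 0.0138 CPM in FeCon. Such a fold against nearly empty controls depends on the fit. Cx3cl1 stood at 2.04 and 1.96 and Cxcl16, the ligand of Cxcr6, at 1.80 and 1.79.

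For Cxcr3, Cxcl10 was a DEG in both sexes (2.64 and 3.58), and Cxcl9 in neither (0.02 and 1.02). For Ccr7, Ccl19 was a DEG in males (1.33) and not in females (0.53), and Ccl21a, whose reads can fall on near-identical copies, was a DEG in females (1.90) and not in males (1.83). Cxcl12, shared by Cxcr4 and Ackr3, was a DEG in both, with log2 fold changes of 1.65 and 1.58. Its mean level was 153 CPM in MaCon and 480.1 CPM in MaAAD, and 153 CPM in FeCon and 458 CPM in FeAAD.

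In lesion-free aortas, 2 ligands were called in males and 1 in females. Ccl8 stood at 2.52 in MaNonAD and 2.42 in FeNonAD, both DEGs. Cx3cl1 was a DEG in MaNonAD at 1.13, with a mean of 31.4 CPM against 14.4 CPM in MaCon. In FeNonAD it stood at 0.92 (edgeR adjusted p = 0.00177) and Cxcl12 at 0.69 (edgeR adjusted p = 0.00807), both past the p threshold but under the fold threshold. In AAD against NonAD, 16 of 21 ligands were called higher in females and 2, Ccl2 (4.13) and Cxcl3 (9.33), in males.

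Of 24 genes of chemokine receptor signalling, 12 were called higher in males and 11 in females in AAD against control, and none lower. The Rac activators Vav1 (2.48 and 2.44) and Dock2 (2.18 and 2.22), the GTPase Rac2 (2.29 and 2.73), Plcb2 (2.19 and 2.88) and the phosphoinositide 3-kinase subunits Pik3cg (2.05 and 1.96) and Pik3r5 (2.25 and 2.09) were higher in both sexes. So were Rgs1 (3.08 and 2.23) and Rgs16 (3.51 and 2.97), which shorten G protein signals, the kinase gene Ptk2b (1.72 and 1.67), the arrestin gene Arrb2 (1.20 and 1.47) and the G protein subunit gene Gng2 (1.20 and 1.18). Prex1 was a DEG in males and stood at 0.67 in females, where it was not. Among those not called in either sex were Gnai2 (0.00 and 0.08), Gnb1 (0.10 and 0.23), Rac1 (0.14 and 0.14) and Grk2 (-0.04 and 0.03). Some genes were past the p threshold but under the fold threshold. Lower were Grk3 (-0.75) and Plcb3 (-0.25) in males and Grk5 in both sexes (-0.45 and -0.40). Higher were Elmo1 (0.31) in males and Prex1, Gnb1 and Gnai3 (0.26) in females. Ptk2b was the only one of the 24 called in a lesion-free group, at 1.21 in MaNonAD, and it stood at 0.55 in FeNonAD.

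The other marker lists were read in the same way. In AAD against control, macrophage markers were called higher in 6 of 7 cases in each sex, monocyte markers in 3 of 3, resident macrophage markers in 1 of 5 and mast cell markers in 0 of 4. B cell markers were called higher in 2 of 4 cases in males and 4 of 4 in females, fibroblast markers in 2 of 5 in each sex, and endothelial and adipocyte markers in none. Red cell markers were called higher in 4 of 4 cases in females, where FeAAD2 is the high library, and in none in males, and heart muscle markers lower in 3 of 4 cases in females, where FeCon10 is the high library. In FeNonAD the neutrophil marker Ly6g was at 0 in every library. The part of these markers in the receptor results was not tested.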

How the data were processed

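RNA of 48 thoracic aortas was measured, 1 library per mouse. The authors deposited expected counts per gene, not scaled to library size. The submitters' processing notes name Bowtie2, RSEM 1.3.1 and GRCm39. Expected counts were rounded to whole numbers (4.99% of values were not whole). Libraries were grouped by their labels. Separate mice are the replicates.

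edgeR 4.0.16 in R 4.3.3 was used with TMM factors (0.874 to 1.08), filterByExpr (14431 genes kept) and a robust quasi-likelihood fit with a mean for each of the 6 groups. P-values were adjusted by Benjamini-Hochberg over all tested genes. Standard errors are approximate, from the fold change and the F statistic. DESeq2 1.42.0 was an alternative. The scripts were tested on simulated data. The summed level of a marker list is the sum of its CPM. Ratios to leukocyte markers used exact permutation tests in Python 3.11.15 with numpy 2.4.6.

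The receptors, gene lists and tests were chosen with earlier results of these data known. All 9 receptors are named. Of the other lists, DEGs of any within-sex comparison could be named. Those named without a call, such as Gnai2, Cxcl9 and Ackr1, were chosen after their values were seen. Intervals and floors cover counting error only, since reads carried no molecular identifiers. Results of 1 further gene are not reported here.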

Additional observations from a re-analysis of the deposited data

Results flagged for a closer look

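Dixon's criterion at 95% was applied to 54 sets of receptor values (9 receptors in 6 groups of 4 to 10 libraries). Its chance rate of about 1 in 20 sets holds for independent sets of normally distributed values. CPM values here were often skewed towards high levels, and the 9 receptors share their libraries. The highest library stood apart from the rest of its group in 17 cases, which for these reasons cannot be set against that rate. FeAAD5 accounted for 5 of them: it held 132 CPM of Ccr1, 193 CPM of Ccr2, 12.8 CPM of Ccr7, 32.9 CPM of Cxcr2 and 39.4 CPM of Cxcr4. MaAAD7 held 101 CPM of Ccr1, 224 CPM of Ccr2 and 24.7 CPM of Cxcr2. In the same libraries the summed neutrophil, leukocyte, macrophage and monocyte markers were each the highest of their groups, and the part of these in the values was not tested.

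Among lesion-free aortas, FeNonAD8 stood apart with 9.55 CPM of Ccr1 and 21.7 CPM of Ccr2, and MaNonAD1 with 9.34 CPM of Cxcr4. MaAAD3 stood apart with 10.8 CPM of Ccr7, a receptor for which the next MaAAD library had 2.80 CPM. Among controls, MaCon2 held 2.68 CPM of Ccr7 and 10.1 CPM of Cxcr4, FeCon7 held 1.34 CPM of Ccr7, FeCon10 held 7.67 CPM of Ccr2 and MaCon4 held 176 CPM of Ackr3. The difference between the sexes in each response was tested for all 9 receptors and passed for none.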

How the results depend on the processing

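The calls of AAD against control held under most settings. Without the 3 AAD libraries high in neutrophil markers the female call of Cxcr2 was lost (1.02, edgeR adjusted p = 0.188). The count was 8 in each sex under DESeq2, its size factors in edgeR, no filter, no robust estimation, unrounded counts, adjusted p alone and the replicate block. A fit of only the groups compared called 4 in FeAAD against FeCon, where its filter left 5 receptors to test, and 6 in MaAAD against MaCon, where it left 7. In MaAAD against MaNonAD the count of 0 became 3 in DESeq2, and 2 with DESeq2's size factors or without the 3 AAD libraries high in neutrophil markers. In FeNonAD against FeCon the count of 1 became 0 without the filter on low counts. Leaving out single libraries gave 0 to 1 calls in MaNonAD against MaCon and in FeNonAD against FeCon, and 0 to 3 in MaAAD against MaNonAD.

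Replicate numbers did not pair the mice: no comparison had all same-numbered libraries correlated above 0.1, and the highest mean was 0.155, between MaAAD and FeAAD. With the replicate block the count in FeNonAD against FeCon was 0, and Ackr3 in FeAAD against FeCon turned to -0.0127. The exact test of ratios has no block.

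Receptors past the threshold relative to leukocyte markers numbered 3 in MaAAD against MaCon and 0 in MaAAD against MaNonAD with Ptprc alone. In FeAAD against FeCon they numbered 2 with a pseudocount of 0.1. With Ptprc alone they numbered 3 in FeNonAD against FeCon, but Ccr2 was not among them. Ccr2, which passed there against the summed markers, stood at 0.43 with Ptprc alone. The higher count is thus no stronger result for Ccr2. No share of all tested genes with Ptprc alone is given beside these counts. Adjusted over all tested genes, an alternative chosen after seeing the data, the number was 0 in FeNonAD against FeCon and 3 in MaAAD against MaNonAD. With a pseudocount of 0.1 Ccr7 turned to 0.46 in males and 0.55 in females, and Cxcr2 to 0.48 in males. Leaving out single libraries gave 0 to 2 in MaNonAD against MaCon, FeNonAD against FeCon and MaAAD against MaNonAD, and 1 to 3 in FeAAD against FeNonAD.

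Small values that did not pass the test changed sign when single libraries were left out. Their ranges were -0.0542 to 0.13 for Ackr3 in FeAAD against FeCon, -0.0175 to 0.0746 in FeNonAD against FeCon, -0.0343 to 0.10 in MaAAD against MaNonAD and -0.10 to 0.0886 in FeAAD against FeNonAD, where it was 0.17 without the 3 libraries high in neutrophil markers. Cxcr2 ran from -0.26 to 0.41 in MaNonAD and from -0.17 to 0.30 in FeNonAD against control, Ccr1 from -0.32 to 0.40 and Cxcr6 from -0.31 to 0.11 in FeNonAD. Relative to leukocyte markers, Cxcr2 ran from -0.68 to 0.00133 in MaAAD against MaCon and Ccr2 from -0.12 to 0.87 in MaNonAD. Where values moved, the cause was not tested. Cxcr2, Cxcr3 and Cxcr6 rest on few counts, which limits their precision in controls, and MaNonAD holds 4 mice.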
